A study of Mus musculus with 2 samples.

Results

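The 5 genes described here, Gata3, Stat6, Il4, Il4ra and Ccr8, make up the core of the type 2 helper (Th2) pathway. They were chosen by name from the 12432 genes of the table, with earlier results of these data known. All 5 were present. They were followed across 178 single CD4 T cells of mouse. The cells carried receptors for the model peptide 2W1S. They were sorted from the spleen and the peripheral lymph nodes of mice of the C57BL/6 strain that had been colonized with Candida albicans engineered to make that peptide. All cells belong to 1 group, CA-2W1S colonization, with no uncolonized mice and no other T cells beside them, so the values below describe a single condition. The cells form 2 samples labelled by month and called captures here, March with 82 cells and April with 96, which are the 2 replicates. The column names also carry 4 prefixes, called runs here: Mar1 (25 cells) and Mar17 (57) in March and Apr13 (48) and Apr21 (48) in April. Both words, capture and run, are names given here, and the column names do not say what a prefix stands for. How many mice were pooled for a capture is not stated, so differences between captures may be technical.

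IL-4 is the cytokine that gives the Th2 pathway its name. It binds a receptor made of the IL-4 receptor alpha chain, encoded by Il4ra, and the common gamma chain, and the kinases on these chains phosphorylate Stat6, which moves to the nucleus. There Stat6 drives the gene of Gata3, the transcription factor that opens the Il4 locus and is also needed, at lower levels, for the development and upkeep of CD4 T cells in general. Follicular helper T cells in lymphoid organs make Il4 as well, and Ccr8, a receptor for the chemokine Ccl1, is found on some Th2 cells and some regulatory T cells.

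Values are the deposited log2(value + 1) and, after taking 2 to that power and subtracting 1, a linear value on what is read as a TPM-like scale, adjusted for transcript length and for the total of the cell. A cell is counted as having a gene when that linear value is at least 1, and a looser count of any value above 0 is given beside it. The intervals are exact Clopper-Pearson 95% intervals over cells; they cover counting error only, and the table holds no read counts, so the depth of a cell is unknown. Between 2927 and 6990 genes were above 0 per cell. All 178 cells had Cd3d, Cd3g and Trbc2 of the T cell receptor complex at 1 or more, 172 had Trac and 126 had Cd4, whereas Cd8a reached 1 in 12 cells and Cd8b1 in 35. The B cell factor Ebf1 was at 1 or more in 158 cells, almost always at low values (5 cells at 10 or more). In 3 cells of the run Mar1 mitochondrial transcripts made up 65.8 to 93.9% of the signal; without them the shares of cells with Gata3, Stat6, Il4, Il4ra and Ccr8 were 73.1, 46.9, 13.7, 3.43 and 9.71%.

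The 5 genes split into a pair of widespread nuclear factors and 3 genes found in few cells. Gata3 was at 1 or more in 128 of 178 cells (71.9%, interval 64.7 to 78.4%) and Stat6 in 83 (46.6%, 39.1 to 54.2%). Il4 was found in 24 cells (13.5%, 8.83 to 19.4%), Ccr8 in 17 (9.55%, 5.66 to 14.9%) and Il4ra in 6 (3.37%, 1.25 to 7.19%). For the median gene of the table the share was 16.9%. The intervals of Gata3 and Stat6 do not touch, and neither touches those of the other 3 genes, while the intervals of Il4 and Ccr8 overlap, as do those of Ccr8 and Il4ra. Per cell, 23 cells had none of the 5 genes at 1 or more, 71 had 1, 67 had 2, 15 had 3 and 2 had 4; no cell had all 5.

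**Figure D1:**
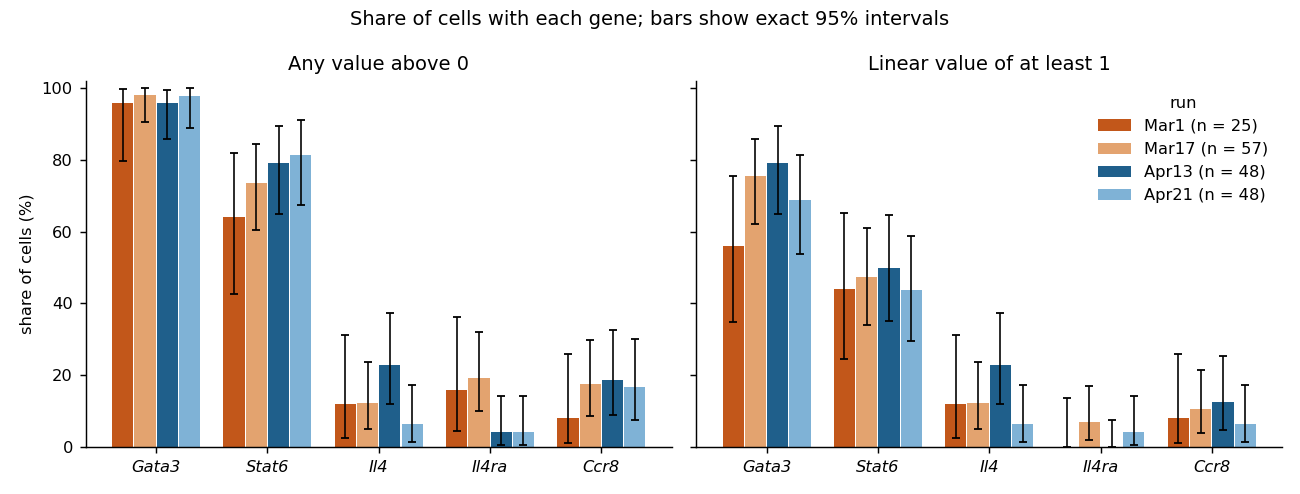
Share of cells (%) with each gene in the 4 runs, with any value above 0 counted on the left and only linear values of 1 or more on the right; error bars are exact 95% intervals over cells. Gata3 falls from 97.2% of all cells on the left to 71.9% on the right, whereas Il4 stays at 13.5%.

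Gata3, the transcription factor that sets the Th2 fate, was above 0 in nearly every cell but spanned a wide range of levels. It was above 0 in 173 cells (97.2%), more cells than for all but 452 of the 12432 genes (3.64%). Among these 173, 45 lay below a linear value of 1. The rest spread over 30 cells between 1 and 3 on the log2 scale, 40 between 3 and 6 and 58 at 6 or more, and its highest value was 10.53. Its standard deviation over all cells, 3.17 on the log2 scale, was close to its mean of 3.96. Near-universal trace detection was itself common in the table: of 646 genes above 0 in at least 95% of cells, 128 reached 1 in fewer than 75% of cells.

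The captures gave similar Gata3 values. Gata3 was at 1 or more in 57 of 82 March cells (69.5%) and 71 of 96 April cells (74.0%). Its mean log2 value was 4.07 ± 3.36 (SD over 82 cells) in March and 3.87 ± 3.01 (SD over 96 cells) in April, so the captures differed by far less than the spread between cells. By run the share was 56.0% in Mar1 (34.9 to 75.6%), 75.4% in Mar17, 79.2% in Apr13 and 68.8% in Apr21. Mar1 was the lowest and has the fewest cells, and its interval overlaps those of the other 3 runs. The gene lies at chr2:9857078-9890034 on the minus strand (mm10) and overlaps Gm13256 and 4930412O13Rik on the other strand and 9230102O04Rik on the same strand. How reads from these overlaps were assigned, and whether strand was used, is not given in the sources used here.

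**Figure D2:**
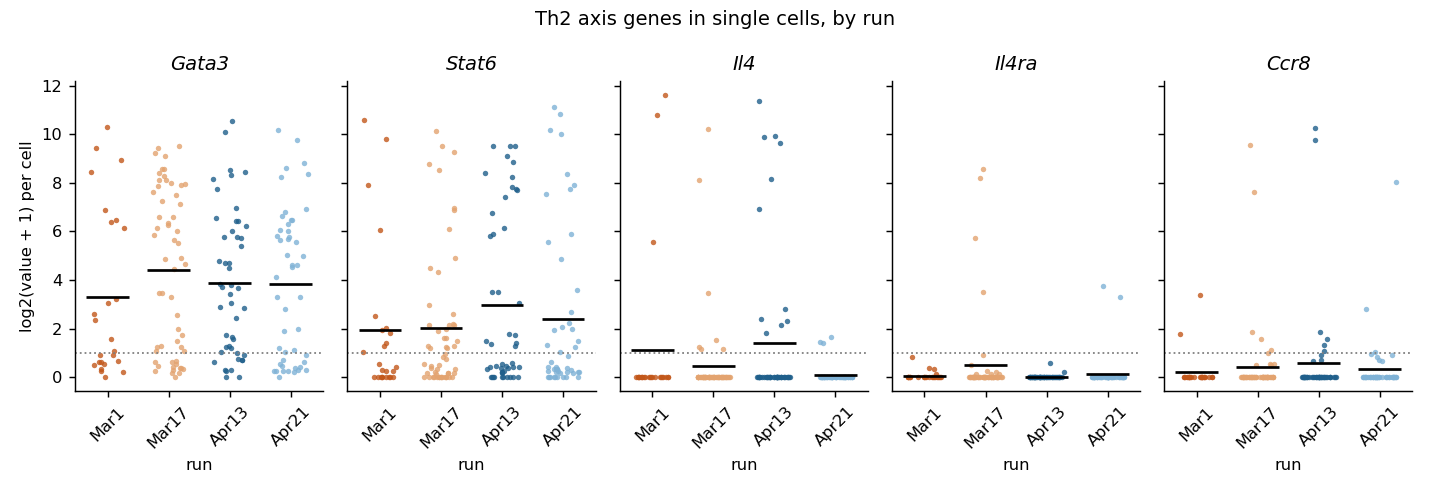
Deposited log2(value + 1) of each gene in every cell (points), by run; black bars are run means over all cells and the dotted line marks a linear value of 1. Gata3 fills the range from 0 to 10.53, Stat6 has many cells near 0 and a separate upper set, and Il4, Il4ra and Ccr8 sit at 0 in most cells.

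Stat6, the factor that carries the IL-4 signal to the nucleus, showed a different spread, with many cells at trace levels and a smaller set of high cells. Of 178 cells, 43 were at 0, 52 lay below a linear value of 1 and 38 between 1 and 3 on the log2 scale. Only 12 cells lay between 3 and 6, while 33 were at 6 or more, up to 11.1. The share at 1 or more was nearly equal in the captures, 38 of 82 cells (46.3%) in March and 45 of 96 (46.9%) in April, and by run it was 44.0% in Mar1, 47.4% in Mar17, 24 of 48 cells in Apr13 and 43.8% in Apr21. The high end was less even: 15 cells of the March capture (18.3%, 10.6 to 28.4%) reached a linear value of 10, as did 29 of the April capture (30.2%, 21.3 to 40.4%), with overlapping intervals. The mean linear value of Stat6 over all cells, 105.9, was close to the 111.3 of Gata3 although Stat6 was found in fewer cells. The gene lies at chr10:127642986-127660957 on the plus strand, and its end overlaps the end of Nab2 on the other strand.

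Il4, the cytokine itself, was either at 0 or above a linear value of 1. Its lowest positive value, 1.21 on the linear scale, lay just above that level. Its 24 positive cells ranged from 1.15 to 11.6 on the log2 scale and none lay below a linear value of 1, so both ways of counting give the same 24 cells. They formed a low and a high set: 12 cells between 1 and 3, 2 between 3 and 6, and 10 at 6 or more. Counted over all genes, Il4 was above 0 in few cells, with 79.7% of genes found in more cells, yet only 18.3% of genes had a higher mean linear value than its 68.4. Few genes lacked values below 1 in this way. Of 10537 genes above 0 in at least 20 cells, 557 (5.29%) had no value below 1, and their median exon length was 636 bases against 4560 for the others. Il4 has 1227 exon bases, and Ccr8, with 1175, had 12 of its 29 positive cells below 1. Across 10354 genes the lowest value above 0 fell with exon length (Spearman rho -0.54, a description across genes, which are not independent).

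Il4 cells were found in every run, at uneven levels. There were 10 in March (12.2%, 6.01 to 21.3%) and 14 in April (14.6%, 8.21 to 23.3%). By run they were 3 of 25 cells in Mar1, 7 of 57 in Mar17, 11 of 48 in Apr13 (22.9%, 12.03 to 37.3%) and 3 of 48 in Apr21 (6.25%, 1.31 to 17.2%). The 3 Mar1 cells stood at 5.57, 10.8 and 11.6 on the log2 scale. The 3 Apr21 cells stood at 1.40, 1.43 and 1.64, and no cell of that run reached a linear value of 10, which allows a share of up to 7.40%. Within April all 6 Il4-high cells, those at 10 or more, therefore came from Apr13, while in March 3 came from each run. The runs of April overlap in their intervals for the share of Il4 cells, and the difference between runs was not tested. Il4 lies at chr11:53602982-53618669 on the minus strand.

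Il4ra, the chain that gives the receptor its specificity for IL-4, was the rarest of the 5. It was above 0 in 19 cells (10.7%), of which 13 lay below a linear value of 1 and 6 reached 1 or more; those 6 ranged from 3.32 to 8.57 on the log2 scale. Any value above 0 was seen in 15 cells of the March capture (18.3%, 10.6 to 28.4%) against 4 of the April capture (4.17%, 1.15 to 10.3%), and these intervals do not overlap. March cells also had more genes above 0, a median of 5344 against 4933.5, and the part of this in the difference was not tested. The 6 cells at 1 or more were 4 of Mar17 and 2 of Apr21, with 0 of 25 in Mar1 and 0 of 48 in Apr13, which allow shares of up to 13.7 and 7.40%. At that level 93.5% of genes were found in more cells. The gene has 6002 exon bases and lies at chr7:125552120-125579474 on the plus strand.

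Ccr8, the chemokine receptor, was above 0 in 29 cells (16.3%) and at 1 or more in 17. Most of its values were low: 12 cells lay below a linear value of 1, 11 between 1 and 3 on the log2 scale, 1 between 3 and 6, and 5 at 6 or more, up to 10.2. At 1 or more it was found in 8 of 82 March cells (9.76%) and 9 of 96 April cells (9.38%), and in 2, 6, 6 and 3 cells of Mar1, Mar17, Apr13 and Apr21. The captures and runs did not differ beyond these counts' intervals. Ccr8 lies at chr9:120092114-120094906 on the plus strand.

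The rest of the pathway placed these 5 genes in context. The common gamma chain Il2rg, the partner of Il4ra, was at 1 or more in all 178 cells and Jak1, the tyrosine kinase carried by the alpha chain, in 175 cells. Jak3, the kinase on the gamma chain, reached 1 in 50 cells (28.1%) and Tyk2 in 14. Among genes that restrain cytokine signals, the phosphatase genes Ptpn1 and Ptpn6 reached 1 in 146 cells and in 59.6% of cells and Socs2 in 144, whereas Socs1 and Cish did so in 11 cells each. Thus the Il4ra chain was the rare component among the receptor genes measured, at 6 cells against 178 for its partner chain.

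Among 17 measured transcription factors listed as acting with Gata3, Ets1 and Bhlhe41 were at 1 or more in all cells, Tcf7 in 173 and Maf, an activator of the Il4 promoter, in 153. Irf4, which also acts on Il4, reached 1 in 9 cells. Bhlhe41 was at a linear value of 10 or more in all 178 cells, against 173 for Ets1 and 159 for Cd3d. The source of so even a signal was not tested. Of 4 measured cytokine genes of the list, Il21, the follicular helper cytokine, was found in 39 cells, Csf2 in 11 and Il10 in 4, beside the 24 of Il4. The 7 further genes of that list, Il5 and Il13 among them, were not in the table under their symbols, so their levels are unknown. Among Th2 surface receptors Icos, a co-stimulator, was at 1 or more in 147 cells, Tnfrsf4 in 57.9% of cells, Ccr4 in 75 and Il1rl1, the IL-33 receptor, in 52. Ccr8 was thus in fewer cells than Ccr4, a chemokine receptor also found on Th2 cells.

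**Figure D3:**
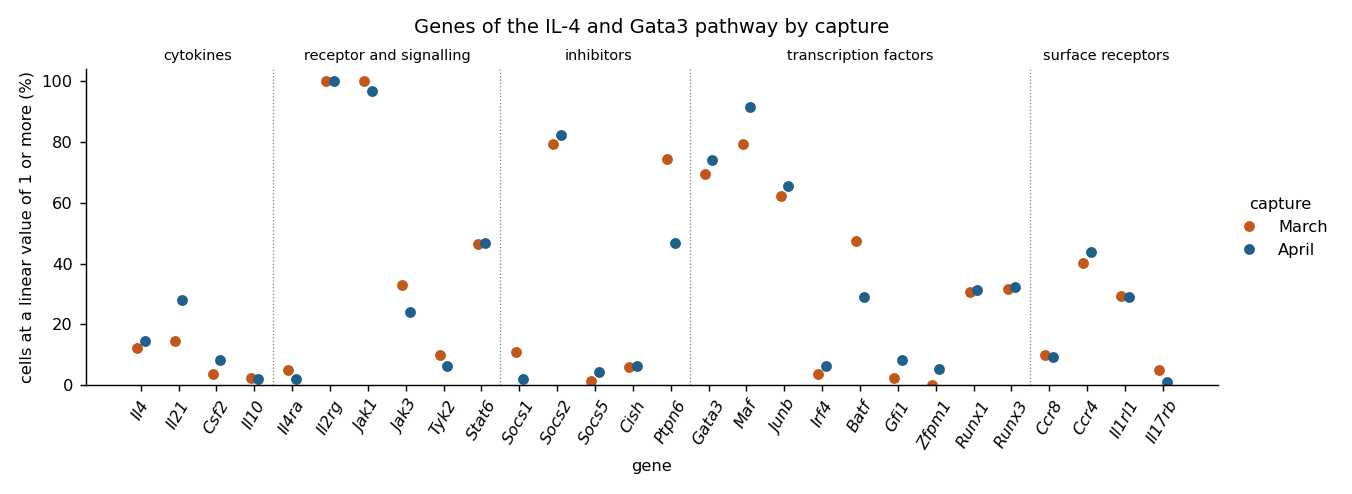
Share of cells (%) at a linear value of 1 or more for genes of the IL-4 and Gata3 pathway in the March (orange) and April (blue) captures, 1 point per capture. Il2rg and Jak1 are near 100% in both captures, Gata3 and Stat6 lie between them and the cytokines, and Il4ra is at 4.88% in March and 2.08% in April.

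Markers of other cells that make Il4 were read beside it. Of 10 basophil, mast cell and eosinophil markers 2 were in the table. Siglecf was at 1 or more in 2 of 24 Il4 cells and 11 of 154 others, and Cd200r3 in 11 of 24 (45.8%, 25.6 to 67.2%) and 46 of 154 (29.9%, 22.8 to 37.8%). The 8 other markers of that list were not in the table under their symbols, and the part of such cells in the Il4 values was not tested. All 24 Il4 cells had Cd3d, Cd3g and Trbc2.

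Gata3 and Il4 were then compared cell by cell. Gata3 was at 1 or more in 20 of the 24 Il4 cells (83.3%, 62.6 to 95.3%) and in 108 of the 154 cells without Il4 (70.1%, 62.2 to 77.2%). The captures gave different pictures: in March the shares were 7 of 10 against 50 of 72 (69.4%), and in April 13 of 14 (92.9%) against 58 of 82 (70.7%). All 11 Il4 cells of Apr13 had Gata3, but only 1 of the 3 in Mar1, where the cells with the highest and the third-highest Il4 of the series stood at 0.90 and 0.61 for Gata3 on the log2 scale. The intervals overlap throughout. They cover counting error over cells only, and a preference of Il4 for Gata3 cells was not tested on these shares. Read the other way, 20 of 128 Gata3 cells (15.6%) and 4 of the 50 cells below 1 had Il4. Counted at any value above 0, all 24 Il4 cells had Gata3, as did 149 of the 154 others.

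Counted at a linear value of 1, Stat6 was no more frequent in Il4 cells than in the others. It was at 1 or more in 10 of 24 Il4 cells (41.7%, 22.1 to 63.4%) and in 73 of 154 others (47.4%, 39.3 to 55.6%), with shares of 40.0 and 47.2% in March and 42.9 and 47.6% in April. At any value above 0 the order was the opposite. Stat6 was then in 20 of 24 Il4 cells (83.3%, 62.6 to 95.3%) and 115 of 154 others (74.7%, 67.0 to 81.3%). Gata3 was at 1 or more in 63 of 83 Stat6 cells (75.9%) and 65 of 95 cells without (68.4%), and in 12 of 17 Ccr8 cells (70.6%) and 116 of 161 without (72.0%). Each pair of intervals overlaps. Over cells, the rank correlation of Gata3 with Stat6 took the values 0.20 for the March and -0.03 for the April capture. Between Gata3 and Il4 it was -0.02 and 0.14. Cells of a capture are not replicates, and Gata3 also followed the number of genes detected (0.25 and 0.14).

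The few cells with the receptor chain were read beside its signalling factor. All 6 Il4ra cells had Stat6 at 1 or more (interval 54.1 to 100%), 4 of 4 in March and 2 of 2 in April, against 77 of the 172 other cells (44.8%, 37.2 to 52.5%). Over both captures the lower bound for the 6 cells lies just above the upper bound for the rest, but within each capture the intervals overlap. Over all values the rank correlation of Stat6 with Il4ra was 0.39 in March and 0.01 in April, where only 4 cells had any Il4ra. At any value above 0, Stat6 was in 17 of the 19 Il4ra cells (89.5%, 66.9 to 98.7%) and 118 of the 159 others (74.2%, 66.7 to 80.8%), and these intervals overlap. None of the 6 Il4ra cells had Il4 or Ccr8, which with 6 cells allows a share of up to 45.9%.

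**Figure D4:**
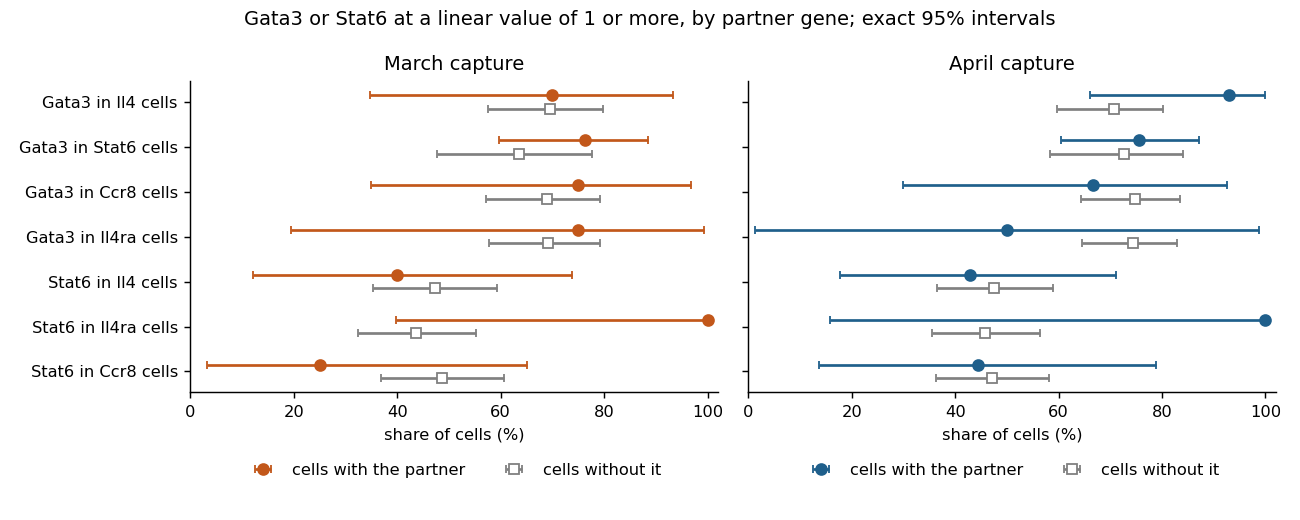
Share of cells (%) with Gata3 or Stat6 at a linear value of 1 or more, among cells with a partner gene at that level (filled circles) and among cells without it (open squares), in each capture, with exact 95% intervals over cells. The intervals of circle and square overlap in every row of both captures; Stat6 in Il4ra cells is at 100%, from 4 and 2 cells.

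Genes of other helper programs were set beside the 5. In the 24 Il4 cells, the follicular helper genes Cd40lg, Cxcr5 and Il21 were at 1 or more in 19, 12 and 7 cells, against 93, 48 and 32 of the 154 others. For each of these 3 genes the intervals overlap. Ccr8 cells had Cxcr5, the homing receptor for B cell follicles, in 11 of 17 cells (64.7%, 38.3 to 85.8%) against 49 of 161 (30.4%, 23.4 to 38.2%), and Icos in 17 of 17 against 130 of 161 (80.7%). These Cxcr5 intervals just separate over both captures, and within each capture (4 of 8 against 16 of 74 in March, 7 of 9 against 33 of 87 in April) they overlap. Many genes were read beside the 5 in this way, and the intervals make no allowance for that. Of the 17 Ccr8 cells, 13 lay at or above their capture's median of genes detected, as did 89 of all 178 cells. The part of this in the Cxcr5 difference was not tested. Foxp3, the regulatory T cell factor, reached 1 in 8 cells: 7 of them had Gata3, 7 had Stat6, and none had Il4 or Ccr8. Over all 178 cells the shares with Gata3, Stat6, Il4 and Ccr8 were 71.9, 46.6, 13.5 and 9.55%. In March 7 of 38 Stat6 cells and 0 of 44 others had Foxp3, and in April 0 of 45 and 1 of 51. Klf2, the gene in the title of the series, was as frequent in Gata3 cells (38 of 128, 29.7%) as in the others (15 of 50, 30.0%), and was found in 6 of 24 Il4 cells.

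Whole transcriptomes of cells with and without each gene were then compared across the captures. The mean log2 value of each gene was taken per capture and class, and limma was run on the resulting 4 libraries with the capture as a block, over 10794 genes. Gata3, Stat6 and Il4ra classes were split at a linear value of 1, Il4 and Ccr8 classes at 0; a difference is a difference of mean log2(value + 1), zeros included. No gene other than the class gene itself passed an adjusted p of 0.05 in any of the 5 comparisons, so percent called was 0 in each. At an unadjusted p under 0.05 limma gave 654 genes for Gata3 (6.06% of those tested), 543 for Stat6 (5.03%), 730 for Il4 (6.76%), 629 for Ccr8 (5.83%) and 1823 for Il4ra (16.9%). The Il4ra classes rest on 4 and 2 cells, and 1560 of the 1823 genes were lower in those cells.

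None of the 5 genes passed the threshold in the classes of another. Gata3 averaged 3.70 in March Il4 cells and 4.13 in the other March cells, and 4.88 and 3.69 in April. The sign thus differed between captures, and the difference over both was 0.38 ± 0.75 (SE; adjusted p = 0.951 by limma). Stat6 was lower in Il4 cells in both captures, at 0.83 against 2.15 in March and 2.13 against 2.79 in April, with a difference of -0.99 ± 0.63 (adjusted p = 0.804 by limma). Il4ra was higher in Stat6 cells, at 0.75 against 0.03 in March and 0.16 against 0.01 in April, with a difference of 0.44 ± 0.15 (limma, unadjusted p = 0.0072, adjusted p = 0.942). Ccr8 was lower in Stat6 cells in both captures, by 0.39 in March and by 0.43 in April, with a difference of -0.41 ± 0.18 (adjusted p = 0.947 by limma). None of these passed the adjustment over all genes.

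**Figure D5:**
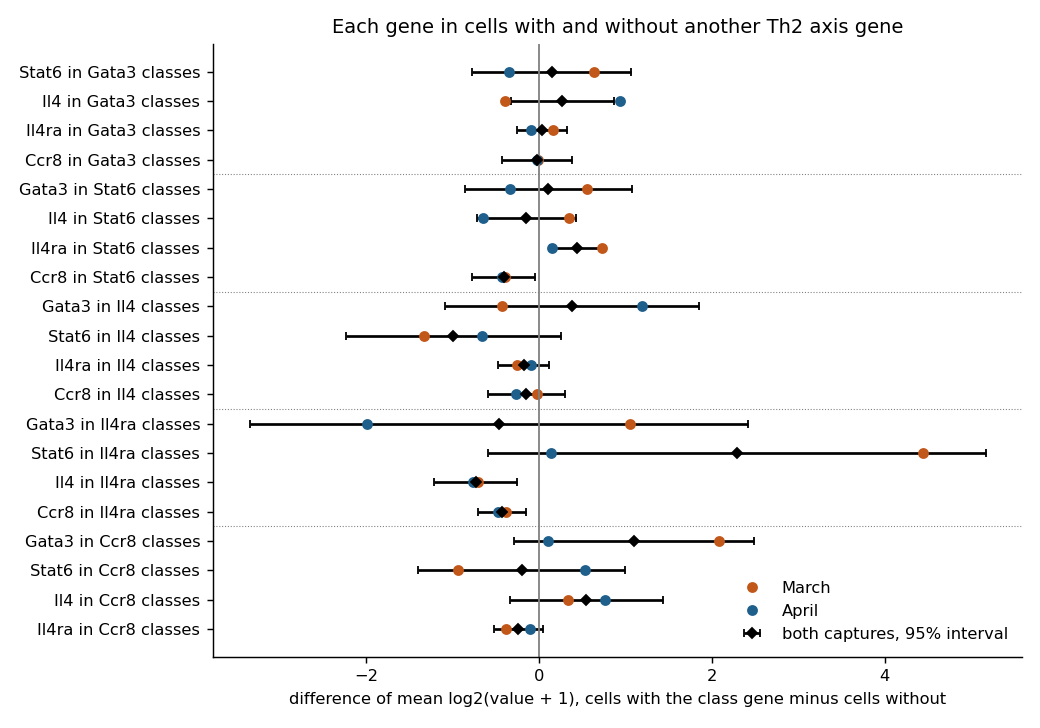
Difference of mean log2(value + 1) between cells with and without a class gene, for each of the other 4 genes: March (orange), April (blue) and both captures with the limma 95% interval (black), not adjusted for the number of genes. The 2 captures lie on opposite sides of 0 for Gata3 in Il4 classes and for Il4 in Gata3 classes, and no difference passed the adjusted threshold.

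No list gene passed the threshold in the Gata3 classes. Of 13 tested antagonists of Gata3, 10 were higher in Gata3 cells in both captures and 2 lower, with a median difference of 0.33 against 0.08 over all tested genes, where 34.3% of genes were higher in both; none passed the threshold. One of them, the Ikaros factor Ikzf1, averaged 1.12 ± 0.52 higher in Gata3 cells (adjusted p = 0.794 by limma). At an unadjusted p under 0.05 by limma, 1 of the 13 antagonists was higher in Gata3 cells and 2 were lower. Other lists had medians as large, 0.35 for the general CD4 T cell markers (6 of 10 higher in both captures) and 0.34 for the neighbours of the Th2 cytokine locus. The 16 tested factors listed as acting with Gata3 had a median of 0.09, and the 10 genes of the IL-4 receptor and its signalling 0.02. The genes with the smallest p were Gm13622 among the higher, at 2.32 against 0.33 in March and 1.69 against 0.40 in April, and ENSMUSG00000079673, which has no symbol here, among the lower. The latter stood at 0.28 against 1.34 in March and 0.70 against 3.58 in April (difference -1.97 ± 0.43, adjusted p = 0.202 by limma), and passed the threshold under 2 of the alternatives given in the closing section. Other genes named by the same rule were Smim14, Olfr1027-ps1 and Gm4724 among the higher and Rdh10, Hsd17b12 and Znrd1 among the lower, each with an adjusted p of 0.626 by limma. March Gata3 cells also had more genes detected, a median of 5433 against 4979, while April cells did not (4932 against 4938). After adjustment for genes detected the number of called genes was again 0.

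In the Stat6 classes the serine/threonine kinase gene Pim1, a known target of cytokine-activated Stat factors, was among the genes with the smallest p. It averaged 2.37 in Stat6 cells against 0.87 in the other March cells and 2.54 against 1.12 in April, a difference of 1.47 ± 0.37 (adjusted p = 0.942 by limma). Maf was higher by 1.10 in March and 1.76 in April, and Tnfrsf4, a co-stimulatory receptor, by 0.93 and 2.00. The common gamma chain Il2rg was higher by 1.36 and 0.48. These had unadjusted p of 0.0052, 0.0029 and 0.030 and none passed the adjustment, with 5.03% of all genes at that unadjusted level. Of 16 tested factors acting with Gata3, 8 were higher in Stat6 cells in both captures and 2 lower, with a median of 0.22 against 0.02 over all genes, where 27.1% of genes were higher in both. The IL-4 receptor list had a median of 0.23, with 2 of 9 tested genes higher in both captures and 1 lower. The list of the IL-2 receptor and Stat5 had the same median, with 2 of 7 higher in both and 1 lower. These lists share genes, Il2rg and Jak1 among them. The Th2 surface receptors, the list that holds Tnfrsf4, had a median of 0.03, near that of all genes. Of its 10 tested genes 3 were higher in both captures and 2 lower. Beside Pim1, the higher genes named by p were ENSMUSG00000062381, which had the smallest p among them, Ctsz and ENSMUSG00000083133. Among the lower genes Nmt2 and Rpl10, a ribosomal protein gene, led.

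In the Il4 classes the genes with the smallest p were segments of the T cell receptor and a signalling gene. Trbj2-5, a joining segment of the beta chain, averaged 7.24 in Il4 cells against 2.17 in March and 6.61 against 5.25 in April, a difference of 3.21 ± 0.74 (adjusted p = 0.0765 by limma). It was at 1 or more in 14 of 24 Il4 cells (58.3%) and 54 of 154 others (35.1%). Tbc1d4, which regulates glucose transporter traffic, averaged 5.84 against 2.89 in March and 6.95 against 3.85 in April, a difference of 3.03 ± 0.75 (adjusted p = 0.190 by limma), and was found in 19 of 24 and 84 of 154 cells. Another joining segment, Traj17, was found in 7 of 24 and 14 of 154 cells. Trbj2-1 and the ribosomal protein gene Rps20 were among the lower. Joining segments are short and resemble their neighbours, and ribosomal protein genes have many copies, so how reads were shared among them is uncertain. With Il4 classes split at a linear value of 10, Tbc1d4 passed the threshold, as the closing section gives.

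The follicular helper list had a median difference of 0.51 in the Il4 classes against 0.09 over all genes, with 5 of 9 tested members higher in both captures and 0 lower, where 28.6% of all genes were higher in both. The regulatory T cell list had a median of 0.48, with 3 of 9 higher in both captures and 2 lower. Cd40lg, the ligand by which helper cells activate B cells, averaged 6.79 against 3.11 in March and 5.62 against 4.85 in April (difference 2.22 ± 0.75, adjusted p = 0.637 by limma), and the inhibitory receptor gene Btla was higher by 0.73 and 3.26. Of 6 tested inhibitors of IL-4 signalling, 5 were higher in both captures, beside the same 28.6% of all genes, with a median of 0.69. The 10 Th2 surface receptor genes had a median of -0.15 with 0 higher in both captures. None of these genes passed the threshold. Il4 cells had more genes detected in both captures, with medians of 5649 against 5299.5 in March and 5163 against 4932 in April. After adjustment for genes detected the number of called genes was again 0.

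In the Ccr8 classes Gata3 averaged 5.86 against 3.77 in March and 3.95 against 3.85 in April, a difference of 1.10 ± 0.69 (adjusted p = 0.939 by limma). The follicular helper list had a median of 0.52 against 0.06 over all genes, with 6 of 9 members higher in both captures and 1 lower, where 26.7% of all genes were higher in both. Among its higher members were Btla, by 1.85 and 1.12, and Izumo1r, by 0.71 and 2.18. The general CD4 T cell markers had a larger median, 0.66, with 7 of 10 higher in both captures and 0 lower. Ccr8 cells also had more genes detected, with medians of 5566.5 against 5212 in March and 4992 against 4932 in April. Foxp3 was lower by 0.49 in March and 0.13 in April. Of the 9 tested regulatory T cell genes, 2 were higher in both captures and 2 lower, with a median of -0.04. The smallest p belonged to Lgals3bp, Ptbp1, Crebbp and Pcif1 among the higher genes and Mapk1ip1, Uba7, Aamdc and Zfp809 among the lower, with an adjusted p of 0.794 by limma for each. The Il4ra cells were too few for more than a list: Tnfaip8, Abracl, Sh3bgrl3 and Mgst2 led the higher genes, and Ly6c1, Wrnip1, Gcnt1 and Ints14, all at 0 in the 6 cells, led the lower, each with an adjusted p of 0.0798 by limma.

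Genes whose levels ran most like those of Gata3 and Stat6 over cells were sought among 6912 genes above 0 in at least 25% of cells of both captures; Il4, Il4ra and Ccr8 are in too few cells to pass that filter. For Gata3 the highest mean Spearman rho over the captures was 0.27, with Rnf121, followed by Phax, Ppp1r8 and Fosb, and the lowest was -0.31, with Spry2, an inhibitor of receptor tyrosine kinase signalling. For Stat6 the highest was 0.29, with Psmb8, a subunit of the immunoproteasome, followed by Cntn3, ENSMUSG00000062381 and Soat1. Only 12 genes for Gata3 and 9 for Stat6 had a rho over 0.2 in both captures. All of these are weak, and a weak rank correlation in sparse values is no finding.

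The stretches just upstream of Il4 and Ccr8 are shown because they are the short genes of the set that few cells carried and because the pathway's own factors are known to act near Il4. The sequences are from RefSeq promoters of GRCm38.p6, cut at the annotated gene body, 5′ to 3′ on the gene's strand. Searched on both strands were TTCNNNNGAA, the palindrome bound by Stat6, and the Gata letters AGATAA and TGATAA; capitals mark a match.

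Il4, chr11:53618670-53618915, minus strand: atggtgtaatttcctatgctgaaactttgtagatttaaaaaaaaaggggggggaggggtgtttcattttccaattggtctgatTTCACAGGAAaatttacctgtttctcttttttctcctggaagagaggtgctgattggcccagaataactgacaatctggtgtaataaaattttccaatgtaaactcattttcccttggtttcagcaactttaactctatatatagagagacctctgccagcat

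Ccr8, chr9:120091883-120092113, plus strand: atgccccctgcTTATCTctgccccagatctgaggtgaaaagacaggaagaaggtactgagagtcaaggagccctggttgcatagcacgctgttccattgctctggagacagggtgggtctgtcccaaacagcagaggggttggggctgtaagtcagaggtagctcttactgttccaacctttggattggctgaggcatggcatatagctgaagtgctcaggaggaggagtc

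The Il4 stretch holds 1 TTCNNNNGAA, which 5.85% of 32851 RefSeq promoter windows of 250 bases hold, and neither Gata motif. It also holds GGAAA, the core read by NFAT, the calcium-driven factor of T cell activation, at 5 places, 1 of which overlaps the Stat6 palindrome; 55.6% of windows hold at least 1. The Ccr8 stretch holds AGATAA once, on the reverse strand, as do 9.99% of windows on either strand, and no TTCNNNNGAA. These are matches of letters only and say nothing of binding in these cells.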

How the data were processed

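Single 2W1S-specific CD4 T cells were sequenced after Fluidigm C1 capture with SMART-Seq v4, which reads whole transcripts without molecular identifiers, per the labels' protocols. The authors deposited log2 values for 12432 genes in 178 cells; genome build mm10 is named in the submitters' processing notes, whereas neither the aligner nor the counter is named in the labels. Back-transformed with a pseudocount of 1, the values sum to between 892206 and 979888 per cell, from which the unit, a TPM-like value, was read. Of the Ensembl IDs, 12163 matched a symbol and 269 did not; 0 columns were unmapped. Depth per cell is unknown, so precision rests on cell numbers.

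The 5 genes and the gene lists were chosen with earlier results of these data known. Cells were split at a linear value of 1 (Il4 and Ccr8 at 0, with at least 5 cells per class and capture), log2 values were averaged per capture and class, and limma 3.58.1 in R 4.3.3 was run with a mean-variance trend, the capture as a block and two-sided p-values adjusted by Benjamini-Hochberg (threshold 0.05) across genes above 0 in 10% or more of cells. Each gene keeps 1 residual degree of freedom, so its variance is largely borrowed from other genes. The p-values reflect how far the class difference varied between the 2 captures, pooled over genes. That variation may be technical. The fits were tested on simulated data. No p-value took cells as replicates. Genes named are the 5, up to 4 per list by share of cells, up to 4 per direction by p for each comparison, and 4 highest and 2 lowest by rank correlation; Irf4, Tyk2, Jak3, Socs1, Cish, Il21, Cxcr5, Klf2, Foxp3 and Btla were in part picked with values known. Alternatives were other levels, pseudocount 10, averaged linear values, no filter, quantile normalization, adjustment for genes detected, other blocks, and leaving out a capture, the run Mar1 or 3 mitochondria-rich cells. No doublet caller was run. SciPy 1.17.1 and Python 3.11.15 were used.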

Additional observations from a re-analysis of the deposited data

How the results depend on the processing

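The level at which a cell is counted moved the shares most. At any value above 0 they were 97.2% for Gata3, 75.8% for Stat6, 10.7% for Il4ra and 16.3% for Ccr8, with Il4 at 13.5% either way, and at a linear value of 10 or more 50%, 24.7, 6.74 and 2.81% for Gata3, Stat6, Il4 and Ccr8. At any value above 0 the share with Gata3 was 100% of Il4 cells, 97.8% of Stat6 cells and 93.1% of Ccr8 cells. The share with Stat6 was 83.3% of Il4 cells and 74.7% of cells without Il4, the opposite order to that at a linear value of 1. Without replicate 1 or 2 the shares ran from 69.5 to 74.0% for Gata3, 46.3 to 46.9% for Stat6, 12.2 to 14.6% for Il4, 2.08 to 4.88% for Il4ra and 9.38 to 9.76% for Ccr8. A single capture leaves no residual degrees of freedom, so it gave no count of calls, and a split of Il4ra at its median could not be made.

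Counts of called genes rose from 0 to 1 for the Gata3 classes without the filter and with quantile normalization (ENSMUSG00000079673 in both), to 1 for the Il4 classes at a linear value of 10 or more (Tbc1d4, 5.48 ± 1.09), and for the Il4ra classes to 1 at 10 or more and to 288, 287 of them lower, after adjustment for genes detected; the cause was not tested. The counts were 0 with no replicate block and with a block of runs in all 5 comparisons. That block held 4 runs, except for the Il4ra classes, where it held only Mar17 and Apr21. Mar1 and Apr13 had 0 cells with Il4ra at 1 or more.

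Differences between the 5 genes that changed sign, none past the threshold, were these. In the Gata3 classes Stat6 was -0.061 split at the median and -0.20 on averaged linear values, Il4 -0.015 at the median and -0.0054 at 10 or more, Il4ra -0.0078 after adjustment for genes detected, and Ccr8 0.024 at the median, 0.062 at 10 or more, 1.05 on averaged linear values and 0.076 with quantile normalization. At 10 or more Gata3 was -0.34 in the Il4 classes and -0.089 in the Ccr8 classes, and Il4 -0.73 in the Ccr8 classes. Stat6 was -0.70 in the Il4ra classes on averaged linear values and 0.44 in the Ccr8 classes with the 4-run block. Settings for the Il4 and Ccr8 classes were added after the data were seen.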

Other observations

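Some list genes that were rare together with the 5 differed between captures. Il17f, a Th17 cytokine gene, was above 0 in 0 of 82 March cells and 40 of 96 April cells, and Cxcr6 in 8.54 and 44.8% of cells. Gfi1, a repressor that acts in Th2 cells, was above 0 in 3 of 82 March and 24 of 96 April cells, whereas Il17rb, the IL-25 receptor, was above 0 in 24.4 and 3.13%, the same direction as Il4ra (18.3 and 4.17%). The month, the pooled mice and the run cannot be told apart here, and these genes were singled out after their values were seen.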
